A study of Mus musculus with 48 samples.

Results

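The transcripts described here encode G-protein coupled receptors of striatal projection neurons. They are an adenosine receptor (Adora2a), the muscarinic M1 and M4 receptors (Chrm1 and Chrm4) and the cannabinoid CB1 receptor (Cnr1). The others are the mu and delta opioid receptors (Oprm1 and Oprd1) and the orphan receptors Gpr6, Gpr52 and Gpr149. All were chosen by gene symbol, with earlier results of these data known. Of the 9 symbols, 8 matched a row among the 48795 gene rows of the count table, and all 8 passed the filter on low counts that left 19975 genes for testing. Gpr52 was not analysed here.

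RNA of the striatum was sequenced in 48 libraries from C57BL/6 mice of 6 months, 24 female and 24 male. Q140 mice carry 1 copy of Htt with an expanded CAG repeat knocked into it, a model of Huntington's disease, and were crossed with mice heterozygous or homozygous for a mutant allele of Msh3, a mismatch repair gene. Without the knock-in there were 7 wild type, 9 Msh3+/- and 8 Msh3-/- libraries. With 1 knock-in allele there were 8 libraries each of Q140, which carries no mutant Msh3 allele, Q140 Msh3+/- and Q140 Msh3-/-. The series' design text gives 7 to 8 per group, while 9 libraries are labelled Msh3+/-. Sample codes in the labels share a stem within some groups. There were 6 stems among the 8 Msh3-/- libraries, 8 among the 9 Msh3+/-, and 7 among the 8 each of Q140 and Q140 Msh3-/-. Stems are also shared across groups, among them Q140 with wild type, Q140 with Q140 Msh3+/-, and Msh3-/- with Q140 Msh3-/-. The main fit did not use stems, and what a stem marks is not given. Nor do the labels say whether each library is a separate mouse, and if some are not, the p-values measure a spread that is partly technical. The comparisons ask how the knock-in changes striatal RNA and how that change depends on Msh3 genotype.

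Totals ran from 33.7 to 52.8 M counts per library, with a median of 45.0 M. Msh3 itself was higher in the libraries labelled Msh3+/- and Msh3-/-: 31.0 ± 1.46 CPM (counts scaled by library size; SD, n = 7) in wild type, 77.4 ± 4.74 (n = 9) in Msh3+/-, 120 ± 7.03 (n = 8) in Msh3-/-, and 32.1 ± 1.27, 77.0 ± 3.14 and 125 ± 6.60 (n = 8 each) in the libraries labelled Q140, Q140 Msh3+/- and Q140 Msh3-/-. The 3 Msh3 genotypes did not overlap in this value, but its direction is opposite to a loss of transcript, and the labels do not describe the Msh3 allele. The genotypes below are therefore those of the labels. The 12 pan-striatal projection neuron markers were all detected in every library, while choroid plexus markers summed to 4299 CPM in Q140 Msh3+/- F1 and 617 CPM in wild type M2 against 22.2 to 84.8 CPM over the libraries of the 4 other groups. In this naming a letter gives the sex and a number the replicate.

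These receptors pass signals to heterotrimeric G proteins. Adora2a encodes a receptor that raises cyclic AMP through the olfactory-type stimulatory G protein and is concentrated in projection neurons of the indirect pathway, where it opposes the dopamine D2 receptor. The M4 receptor lowers cyclic AMP and is concentrated in direct-pathway neurons, while the M1 receptor acts through Gq in both classes. CB1 and the opioid receptors couple to inhibitory G proteins, CB1 mainly on axon terminals and the mu receptor in the patch compartment. Gpr6 is a constitutively active orphan receptor of indirect-pathway neurons, and Gpr149 is an orphan receptor with no established ligand. Loss of striatal adenosine and CB1 receptors is a known feature of Huntington's disease.

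On GRCm38 in GENCODE M21, Adora2a (ENSMUSG00000020178) lies at chr10:75316877-75334784 on the plus strand. Chrm1 (ENSMUSG00000032773) spans chr19:8663789-8683587, plus strand, and Chrm4 (ENSMUSG00000040495) spans chr2:91927249-91928688, plus strand. Cnr1 (ENSMUSG00000044288) is at chr4:33924593-33948831, plus strand. Oprd1 (ENSMUSG00000050511) is at chr4:132110726-132144486, minus strand, and Oprm1 (ENSMUSG00000000766) at chr10:6758506-7038198, plus strand. Gpr6 (ENSMUSG00000046922) is at chr10:41069977-41072285, minus strand, and Gpr149 (ENSMUSG00000043441) at chr3:62529077-62605140, minus strand. None shares a chromosome with Htt (5) or Msh3 (13). Oprm1 overlaps Gm10945 and Ipcef1 and Chrm1 overlaps Gm22820, each on the opposite strand. Whether counting used strand is not given in the sources used here, so reads of such neighbours cannot be told apart from those of the receptor.

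RefSeq promoter entries (GRCm38.p6) were matched for 5 of the 8 receptors. The 250 bases before the start are shown for the 4 of these 5 whose RNA was called lower in Q140, to let their composition be compared. Capitals mark GC boxes (GGGCGG) or TGACG, the core of the cyclic AMP response element, on either strand. Chrm4 lies at chr2:91921939-91922188 and Cnr1 (the first of its 3 entries) at chr4:33924014-33924263, both on the plus strand. Oprd1 lies at chr4:132144487-132144736 and Gpr6 at chr10:41072291-41072540, both on the minus strand.
Chrm4: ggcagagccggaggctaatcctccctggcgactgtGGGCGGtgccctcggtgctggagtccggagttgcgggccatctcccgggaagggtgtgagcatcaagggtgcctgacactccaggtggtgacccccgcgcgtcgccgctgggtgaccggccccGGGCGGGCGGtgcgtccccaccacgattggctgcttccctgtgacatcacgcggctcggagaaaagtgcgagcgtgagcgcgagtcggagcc
Cnr1: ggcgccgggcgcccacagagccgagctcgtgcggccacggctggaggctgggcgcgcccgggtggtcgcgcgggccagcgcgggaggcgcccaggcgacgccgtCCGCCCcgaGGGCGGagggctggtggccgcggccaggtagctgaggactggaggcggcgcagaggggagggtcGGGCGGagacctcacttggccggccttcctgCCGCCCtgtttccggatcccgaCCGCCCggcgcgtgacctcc
Oprd1: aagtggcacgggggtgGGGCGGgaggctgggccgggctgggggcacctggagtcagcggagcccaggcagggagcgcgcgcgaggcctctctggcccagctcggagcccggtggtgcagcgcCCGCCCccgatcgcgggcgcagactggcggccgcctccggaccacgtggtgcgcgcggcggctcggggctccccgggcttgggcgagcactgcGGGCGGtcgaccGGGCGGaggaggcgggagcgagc
Gpr6: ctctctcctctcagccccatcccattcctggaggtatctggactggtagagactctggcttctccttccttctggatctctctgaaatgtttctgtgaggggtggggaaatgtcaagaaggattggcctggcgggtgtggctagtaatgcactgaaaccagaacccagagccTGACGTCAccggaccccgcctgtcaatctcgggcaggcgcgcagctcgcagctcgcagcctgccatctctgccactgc

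Among these windows 3 are rich in G and C. The Chrm4 window is 70.0% G and C with 26 CG dinucleotides and 3 GC boxes. The Cnr1 window shown has 79.2% with 36 and 5, and the Oprd1 window 80.0% with 34 and 4. The Cnr1 entries not shown had 68.8% with 28 CG dinucleotides and 49.2% with 5, and held no GC box. The entry with 68.8% starts 51 bases from the start of the Cnr1 gene model, against 329 bases for the window shown. The Gpr6 window, at 58.4% with 9 CG dinucleotides and no GC box, instead holds TGACG on both strands within 1 palindromic run, TGACGTCA, which begins 78 bases before the start. Over the 32851 promoters of the table the median was 52.4% G and C with 6 CG dinucleotides. A GC box was present in 32.7%, TGACG in 17.8%, the whole run TGACGTCA, which contains TGACG and was added to the search after the Gpr6 sequence had been read, in 1.55%, and TATAAA in 12.4%. The E-box CANNTG, which was searched but not capitalised, was present in 66.2%. The 3 Oprm1 entries had 45.6% to 50.8% G and C and none of these motifs. These matches describe letters and do not show binding.

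Levels were compared between receptors only per length, as deposited FPKM (fragments scaled by gene length and library total). In wild type striatum Adora2a stood highest at 150 ± 10.9 FPKM (SD, n = 7), followed by Cnr1 at 70.8 ± 9.06, Chrm4 at 61.2 ± 4.26, Gpr6 at 48.9 ± 3.08 and Chrm1 at 28.9 ± 1.08. Oprd1 followed at 10.8 ± 1.02, Gpr149 at 2.64 ± 0.469 and Oprm1 at 0.877 ± 0.203. Every neighbouring pair in this order differed by more than the larger of its SDs, and the order was also that of the Msh3+/- and Msh3-/- groups. In Q140 mice Chrm4 (43.7 ± 4.76 FPKM, n = 8) stood above Cnr1 (41.6 ± 10.1), and neither this pair nor Cnr1 and Gpr6 (35.5 ± 3.56) differed beyond their spread. In Q140 Msh3+/- and Q140 Msh3-/- mice Cnr1 (51.5 ± 5.43 and 57.7 ± 7.76 FPKM) and Chrm4 (50.04 ± 4.32 and 53.4 ± 4.74) did not differ beyond their spread either. The place of Chrm4 rests on the gene length of 1440 bases that its FPKM imply, against 1774 to 8037 bases for the other 7, and the RefSeq start lies 5060 bases upstream of that gene model.

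**Figure D1:**
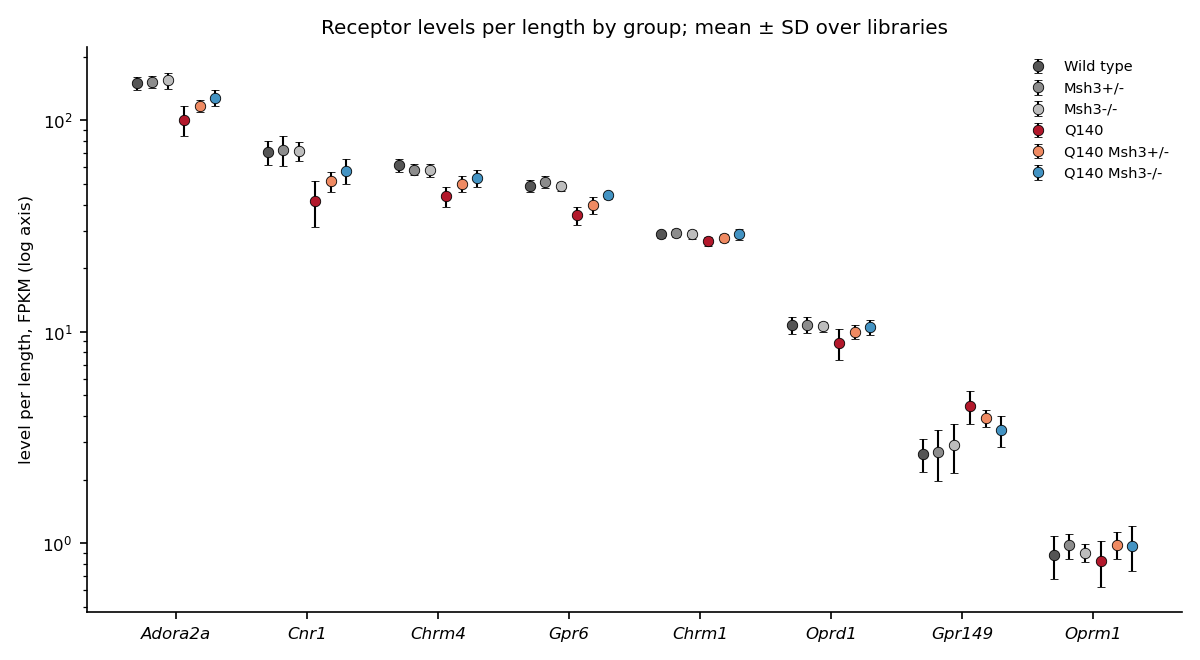
Level per length of the 8 receptors in each genotype group, in FPKM on a log axis. Points are group means and bars SD over libraries; Adora2a is highest in all 6 groups and Oprm1 lowest, and Chrm4 and Cnr1 lie together in the 3 Q140 groups.

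The knock-in lowered 6 of the 8 receptors and raised 1. In Q140 against wild type, edgeR's quasi-likelihood test with Benjamini-Hochberg adjustment over all genes called 6 receptors lower, where 10.2% of all genes were called lower, and 1 higher, where 9.64% were. The median log2 change of the 8 was -0.45, against 0.01 over all genes tested. For 4 of the 8 (Adora2a, Chrm4, Gpr6 and Gpr149) the Q140 and wild type ranges did not overlap, which held for 3.52% of all genes. Values are given as lowest, median and highest CPM in each group.

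Adora2a ran from 340 through a median of 390 to 427 CPM in wild type and from 202 through 227 to 319 CPM in Q140. All 8 Q140 libraries lay below every wild type library. The log2 change was -0.65 (SE 0.076, adjusted p = 1.69e-08), a level 0.637 times that of wild type.

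Chrm4 ran from 79.4 through 90.7 to 96.3 CPM in wild type and from 49.5 through 60.1 to 74.2 CPM in Q140, again without overlap. It fell by 0.55 on the log2 scale (SE 0.060, adjusted p = 1.43e-09). Chrm1, the other muscarinic receptor, ran from 178 through 187 to 202 CPM in wild type and from 149 through 168 to 186 CPM in Q140, so that the highest Q140 library overlapped the wild type range. Its log2 change was the smallest of the 6 receptors called lower, at -0.19 (SE 0.043, adjusted p = 0.00117).

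Cnr1 had the largest fall of the 6 on the log2 scale. It ran from 352 through 496 to 518 CPM in wild type and from 177 through 247 to 377 CPM in Q140, and 7 of 8 Q140 libraries lay below every wild type library. Its log2 change was -0.84 (SE 0.126, adjusted p = 2.59e-06).

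The opioid receptors differed in their test. Oprd1 ran from 38.0 through 45.0 to 50.9 CPM in wild type and from 25.1 through 34.2 to 43.7 CPM in Q140, with 6 of 8 Q140 libraries below every wild type library and a log2 change of -0.36 (SE 0.080, adjusted p = 0.000835). Oprm1, with 196 to 465 reads per wild type library, ran from 4.67 through 7.40 to 9.64 CPM there and from 4.41 through 6.40 to 8.96 CPM in Q140. The ranges largely coincided, and the log2 change of -0.17 did not pass (95% interval -0.44 to 0.11, adjusted p = 0.457). Whether the changes of Oprd1 and Oprm1 differ from each other was not tested.

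The orphan receptors moved in opposite directions. Gpr6 ran from 80.6 through 88.6 to 96.0 CPM in wild type and from 50.6 through 61.5 to 71.9 CPM in Q140, without overlap, and fell by 0.54 on the log2 scale (SE 0.058, adjusted p = 1.29e-09). Gpr149 ran from 7.24 through 11.6 to 13.8 CPM in wild type and from 15.2 through 17.7 to 22.1 CPM in Q140. Every Q140 library lay above every wild type library, and the log2 change was 0.69 (SE 0.117, adjusted p = 2.26e-05). All 7 calls were also made by DESeq2, by limma on log2 FPKM and without any 1 of the 15 libraries.

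**Figure D2:**
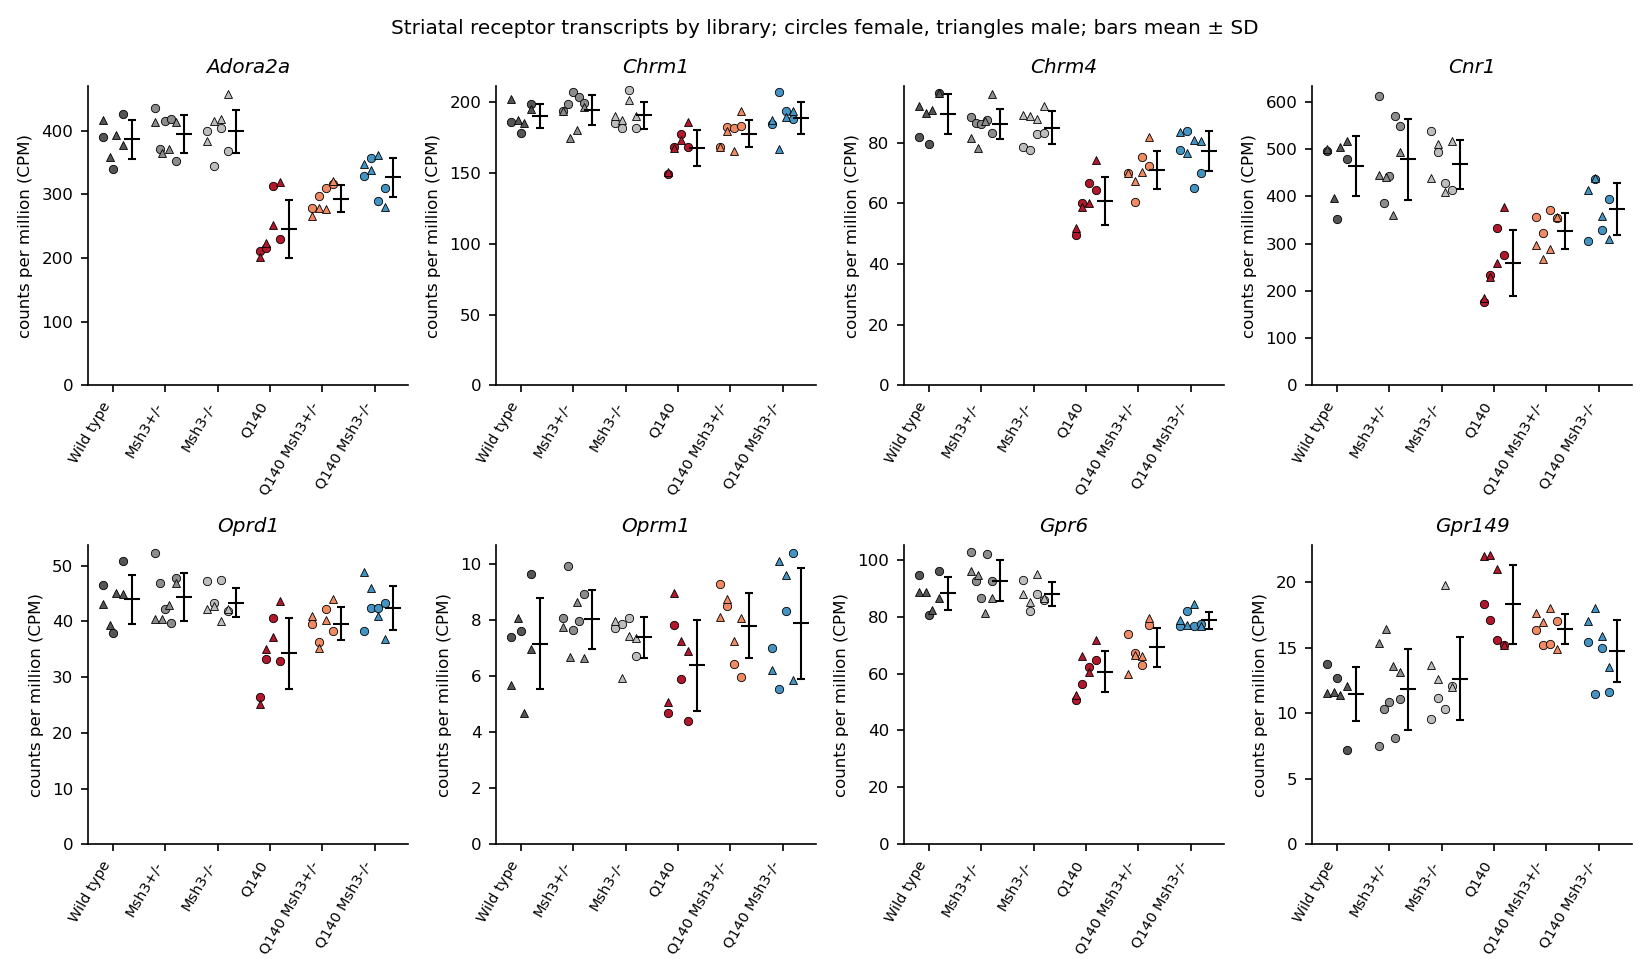
CPM of each receptor in every library by genotype group (circles female, triangles male), with the group mean and SD beside the points. Adora2a, Chrm4, Gpr6 and Gpr149 separate Q140 from wild type without overlap, and Q140 Msh3+/- and Q140 Msh3-/- means lie between Q140 and wild type for these 4.

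Pan-projection-neuron markers fell as most receptors did, while direct-pathway markers were mixed. The counts below stand beside 10.2% of all genes called lower and 9.64% called higher. All 12 pan-projection-neuron markers fell in Q140 against wild type, and their summed level went from 13272 to 15019 CPM (median 14445) in wild type to 7931 to 11753 CPM (median 9424) in Q140. The 5 indirect-pathway markers summed to 2302 to 2791 CPM in wild type and 1218 to 1760 CPM in Q140, with 3 of 5 lower. Such sums weigh abundant genes most: over all libraries Penk averaged 10.6 in log2 CPM, and the next of these 5, Drd2, 8.03. The 8 direct-pathway markers summed to 698 to 789 and 588 to 722 CPM, with 3 higher and 1, Drd1, lower. Astrocyte markers summed to 4469 to 4806 and 3320 to 4180 CPM, with 3 of 7 lower. Among these 7, Slc1a2 averaged 11.7 in log2 CPM and the next, Slc1a3, 8.93. Microglial markers summed to 250 to 324 and 203 to 263 CPM, with 2 of 6 lower. No oligodendrocyte (0 of 7) or cholinergic interneuron (0 of 5) marker was called, 2 of 6 GABAergic interneuron and 2 of 5 endothelial markers were lower, 1 of 5 choroid plexus markers was lower, and 1 of 7 cortical neuron markers was higher. The part of these markers in the receptor results was not tested. In bulk tissue, fewer cells of a type and less RNA per cell cannot be told apart.

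In the libraries labelled Q140 Msh3-/- the mean CPM of the 6 receptors that Q140 lowered lay closer to wild type than in Q140. Against Q140, the Q140 Msh3-/- libraries had 6 of 8 receptors higher, where 6.85% of all genes were called higher, and none lower. The median log2 difference of the 8 was 0.33, against -0.01 over all genes. The 6 called higher were those 6. The comparison with wild type and this one share the Q140 libraries, so that the choice of receptors called in both is not independent.

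In Q140 Msh3-/- libraries Adora2a ran from 280 through 333 to 362 CPM, with all 8 above the Q140 median, and a log2 difference from Q140 of 0.41 (SE 0.074, adjusted p = 0.000126). Chrm4 ran from 65.0 through 79.0 to 83.7 CPM and rose by 0.35 (SE 0.058, adjusted p = 4.08e-05), and Chrm1 ran from 167 through 189 to 207 CPM and rose by 0.17 (SE 0.041, adjusted p = 0.00323). Cnr1 ran from 306 through 377 to 439 CPM and rose by 0.53 (SE 0.122, adjusted p = 0.00254). These 4 ranges overlapped those of Q140.

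Gpr6 ran from 76.6 through 77.1 to 84.6 CPM, a narrow range wholly above that of Q140. It was the 1 receptor of 8 without overlap in this comparison, against 0.946% of all genes, and its log2 difference was 0.38 (SE 0.056, adjusted p = 7.65e-06). Oprd1 ran from 36.9 through 42.5 to 48.9 CPM and rose by 0.30 (SE 0.078, adjusted p = 0.00643). Oprm1 ran from 5.55 through 7.65 to 10.4 CPM, with a log2 difference of 0.30 that did not pass (95% interval 0.03 to 0.57, adjusted p = 0.162). Gpr149 ran from 11.5 through 15.2 to 18.0 CPM, 4 of 8 libraries lying below every Q140 library, and its log2 difference of -0.31 missed the threshold (SE 0.111, adjusted p = 0.0585).

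The libraries labelled Q140 Msh3+/- had smaller differences from Q140. Q140 Msh3+/- libraries had 1 receptor of 8 called higher than Q140, where 1.28% of all genes were, and the median log2 difference was 0.22 against -0.01 over all genes. Chrm4 ran from 60.3 through 70.2 to 81.8 CPM and rose by 0.22 (SE 0.058, adjusted p = 0.0309), a call lost on leaving out any of 8 of the 16 libraries. Adora2a (266 through 288 to 322 CPM, log2 difference 0.25, adjusted p = 0.0550) and Gpr6 (59.9 through 66.8 to 79.7 CPM, 0.19, adjusted p = 0.0606) missed the threshold. Cnr1 ran from 267 through 338 to 372 CPM and Oprd1 from 35.2 through 39.9 to 44.1 CPM, with log2 differences of 0.33 (adjusted p = 0.142) and 0.21 (adjusted p = 0.152). For Chrm1 (166 through 181 to 193 CPM), Oprm1 (5.97 through 8.09 to 9.29 CPM) and Gpr149 (14.9 through 16.7 to 18.0 CPM) the adjusted p ran from 0.293 to 0.544.

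Q140 Msh3-/- and Q140 Msh3+/- were not separated for any receptor: 0 of 8 were called by edgeR or DESeq2, where 0.015% of all genes were called by edgeR, and 4 of 8 had an unadjusted p under 0.05. All but Gpr149 had a higher fitted level in Q140 Msh3-/-. The largest log2 differences were 0.20 for Cnr1 (95% interval -0.04 to 0.43) and 0.19 for Gpr6 (95% interval 0.08 to 0.30, adjusted p = 0.385).

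Q140 M4 lay at the edge of its group for most receptors, although not far from its nearest neighbour by the test of outliers. Among the 8 Q140 libraries it was the highest for Adora2a, Chrm1, Chrm4, Cnr1, Oprd1 and Gpr6 and the lowest for Gpr149, and it also had the highest summed pan-projection-neuron markers (11753 CPM). Wild type F2 was the lowest of its group for the same 6 receptors, and Q140 Msh3+/- M4 was the highest of its group for 5 and the lowest for Gpr149. The codes of Q140 M4 and Q140 Msh3+/- M4 share a stem, the meaning of which is not given. Without Q140 M4, Q140 Msh3+/- against Q140 had 5 receptors higher (Adora2a, Chrm4, Cnr1, Oprd1 and Gpr6), while the calls over all genes went from 395 to 992, 648 of them higher. Also without it, Q140 Msh3-/- against Q140 had 6 higher and 1, Gpr149, lower. The pan-projection-neuron markers were called higher for 12 of 12 in Q140 Msh3-/- (sum 11666 to 13599 CPM) and for 8 of 12 in Q140 Msh3+/- (10641 to 12809 CPM) against Q140, where 6.85% and 1.28% of all genes were, and their part in the receptor differences was not tested.

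Without the knock-in, Msh3 genotype changed no receptor past the threshold. Between Msh3+/- and wild type 0 of 8 were called (0.01% of all genes), and between Msh3-/- and wild type 0 of 8 (0.03% of all genes). DESeq2 called none in either, and none had an unadjusted p under 0.05 in edgeR. The log2 differences ran from -0.05 for Chrm4 to 0.16 for Oprm1 in Msh3+/- and from -0.07 for Chrm4 to 0.14 for Gpr149 in Msh3-/-. The 95% intervals allow differences of -0.10 to 0.20 for Adora2a, -0.19 to 0.05 for Chrm4 and -0.24 to 0.26 for Cnr1 in Msh3-/-.

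**Figure D3:**
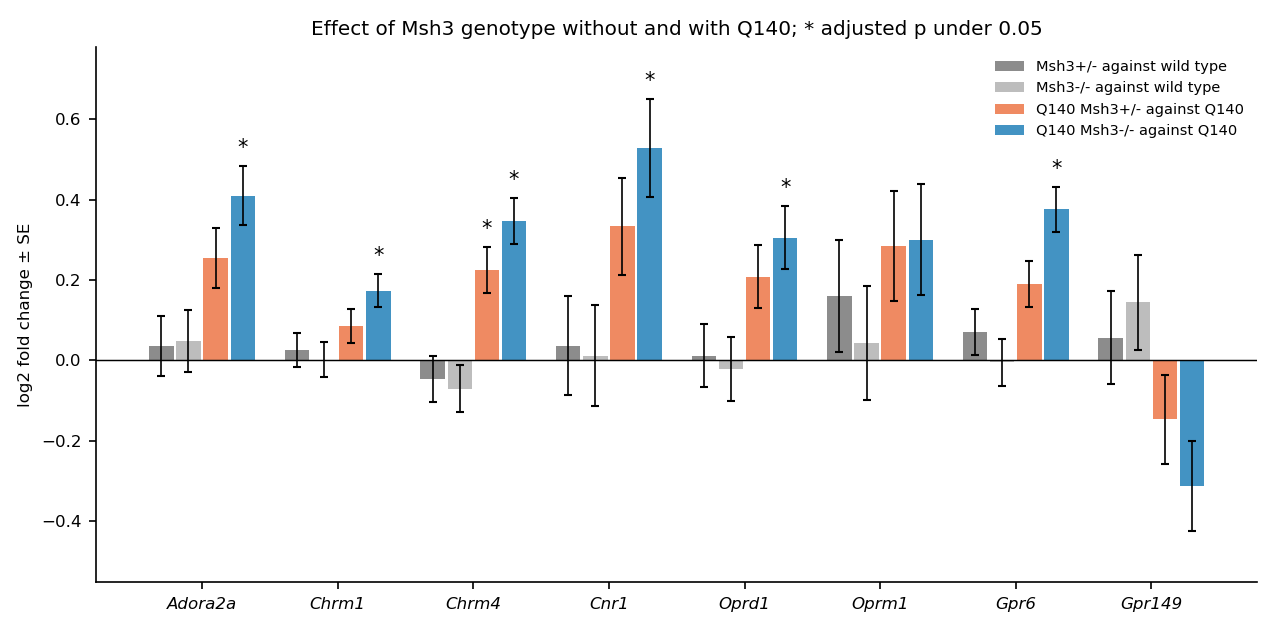
Log2 fold change ± SE of each receptor for Msh3+/- and Msh3-/- against wild type (grey) and for Q140 Msh3+/- and Q140 Msh3-/- against Q140 (orange and blue), with asterisks where the adjusted p is under 0.05. Of the 32 bars, 7 carry an asterisk: Chrm4 in orange and, in blue, Adora2a, Chrm1, Chrm4, Cnr1, Oprd1 and Gpr6.

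The effect of the knock-in was also measured within each Msh3 genotype, against mice of that genotype without it. On the Msh3+/- background 5 of 8 receptors fell, where 3.49% of all genes did, and 1 rose, where 2.96% did. The ranges of 2 of the 8, Adora2a and Gpr6, did not overlap, against 0.586% of all genes. Adora2a fell by 0.43 (SE 0.072, adjusted p = 8.04e-05), from 352 to 435 CPM in Msh3+/- libraries to 266 to 322 CPM. Gpr6 fell by 0.42 (SE 0.055, adjusted p = 1.30e-06), Chrm4 by 0.28 (SE 0.056, adjusted p = 0.000907) and Cnr1 by 0.55 (SE 0.119, adjusted p = 0.00272). Gpr149 rose by 0.48 (SE 0.109, adjusted p = 0.00399). Chrm1 fell by 0.13 (adjusted p = 0.0468), a call lost on leaving out any of 14 of the 17 libraries. Oprd1 (-0.16) and Oprm1 (-0.04) did not pass.

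On the Msh3-/- background 0 of 8 receptors were called, where 0.0751% of all genes were, although 5 of 8 had an unadjusted p under 0.05. Adora2a ran from 345 through 402 to 457 CPM in Msh3-/- libraries, and all 8 Q140 Msh3-/- libraries lay below that median. Its log2 difference was -0.29 (95% interval -0.43 to -0.14, adjusted p = 0.177), and DESeq2 called it. Cnr1 (-0.33, 95% interval -0.56 to -0.09), Gpr6 (-0.16, -0.27 to -0.05) and Chrm4 (-0.14, -0.25 to -0.02) had intervals below 0 without adjustment, and Gpr149 (0.23, 0.01 to 0.45) above it. Chrm1 (-0.01, -0.10 to 0.07) and Oprd1 (-0.03, -0.19 to 0.12) had intervals that included 0.

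The change of the Q140 effect with Msh3 genotype was tested as an interaction. For Msh3-/- it was called for 2 of 8 receptors, where 1.67% of all genes were called higher: Chrm4 (0.42, SE 0.083, adjusted p = 0.00285) and Gpr6 (0.38, SE 0.081, adjusted p = 0.00533). With the plate row of the labelled well as a covariate neither passed, Chrm4 at 0.34 (adjusted p = 0.0564) and Gpr6 at 0.29 (adjusted p = 0.131). Adora2a missed the threshold at 0.36 (SE 0.106, adjusted p = 0.0526), as did Cnr1 at 0.52 (adjusted p = 0.106), Oprd1 at 0.33 (adjusted p = 0.112), Chrm1 at 0.17 (adjusted p = 0.118) and Gpr149 at -0.46 (adjusted p = 0.130). Without Q140 M4, 6 of 8 were called, with Adora2a, Chrm1, Cnr1 and Oprd1 added, while the calls over all genes went from 478 to 935, 635 of them higher. For Msh3+/- the interaction was called for 0 of 8 by edgeR and by DESeq2, with 0% of all genes called by edgeR, and 2 of 8 (Chrm4 and Adora2a) had an unadjusted p under 0.05.

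**Figure D4:**
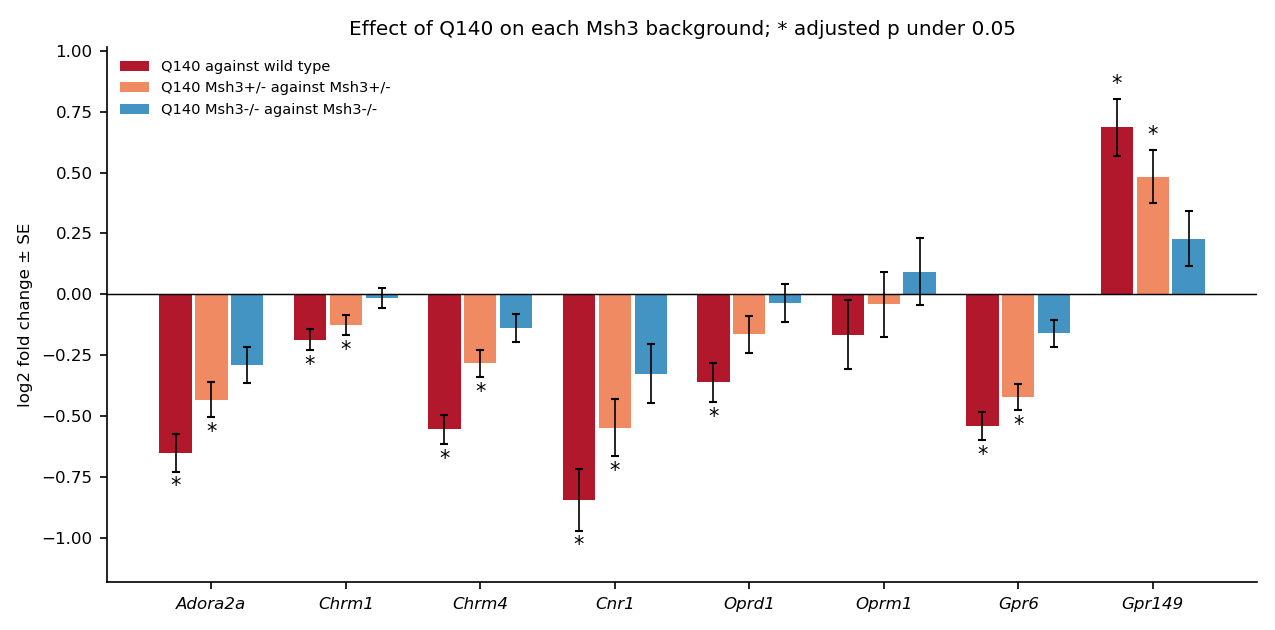
Log2 fold change ± SE of each receptor for Q140 on the wild type, Msh3+/- and Msh3-/- backgrounds, with asterisks where the adjusted p is under 0.05. Asterisks stand on 7 receptors in red, 6 in orange and 0 in blue, and the red bar is the longest of its 3 for each receptor.

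Sex entered the fit as a covariate, and its own term was read as a comparison added after the data were seen. Gpr149 was the 1 receptor called, higher in males by 0.30 (SE 0.065, adjusted p = 0.00705), where 1.28% of all genes were called higher. Its mean was higher in males in all 6 groups, by unequal amounts. It was 14.6 ± 1.51 (SD, n = 4) against 9.57 ± 1.66 CPM (n = 5) in Msh3+/-. In Q140 it was 20.1 ± 3.31 (n = 4) against 16.6 ± 1.43 CPM (n = 4). In wild type the means were close, 11.7 ± 0.302 (n = 4) against 11.2 ± 3.50 CPM (n = 3). That female mean includes F3 at 7.24 CPM, far from the rest of its group. The Msh3-/- means, 14.5 ± 3.58 against 10.8 ± 1.07 CPM (n = 4 each), include male M3 at 19.8 CPM. The Q140 effect differed between the sexes for 0 of 8 receptors by edgeR and by DESeq2 (0% of all genes by edgeR). The 1 receptor with an unadjusted p under 0.05 was Oprm1 (0.68, 95% interval 0.13 to 1.22, adjusted p = 0.652).

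The receptors also varied among themselves between libraries of 1 group. The mean of each group and sex was taken away from log2 CPM, and Pearson's r was computed over the 48 libraries, which share their depth and composition between receptors. It is given as a description. The 15 pairs among the 6 receptors lowered in Q140 had r from 0.42 to 0.77, with a median of 0.62. The highest was Cnr1 with Oprd1. Spearman's rho was lower than r for each of these 15 pairs, from 0.25 (Oprd1 with Gpr6) to 0.70 (Cnr1 with Oprd1). Gpr149 had r from -0.53 to -0.31 with these 6, and Oprm1 from -0.08 to 0.23. Without Q140 M4, the ranges were 0.32 to 0.73, -0.45 to -0.22 and -0.09 to 0.25.

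**Figure D5:**
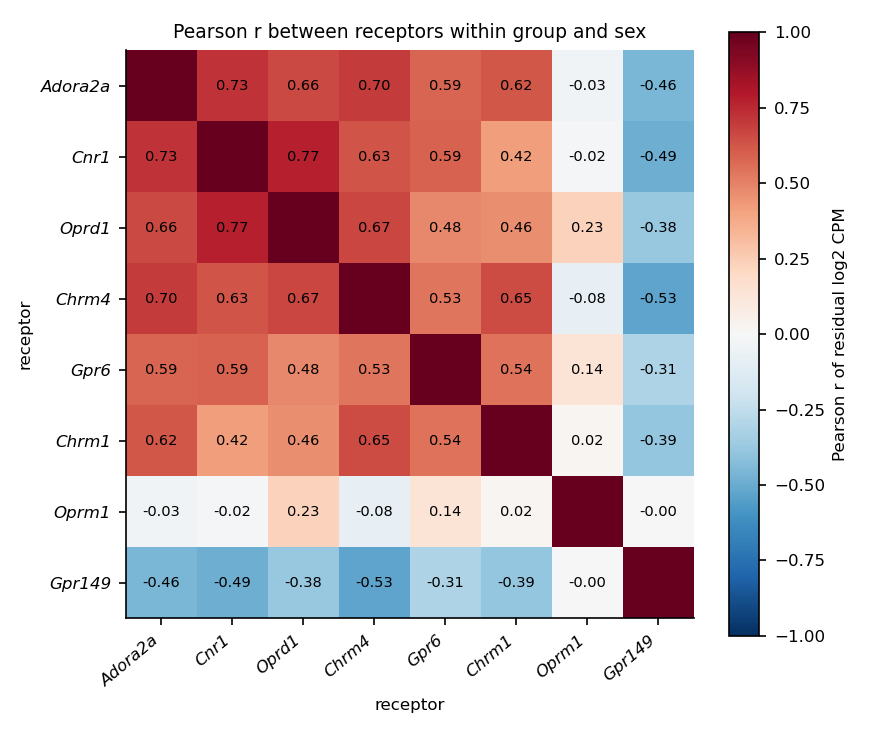
Pearson's r of log2 CPM between each pair of receptors over 48 libraries after the mean of group and sex was taken away, on a colour scale from -1 to 1. The 6 receptors lowered in Q140 form a positive block, Gpr149 is negative against each of them (-0.53 to -0.31), and Oprm1 lies near 0 (-0.08 to 0.23).

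Up to 3 of the genes most like each receptor are named by the same residual correlation, among 13241 genes and over 48 libraries. For Adora2a they were Pde1b (r = 0.91), which encodes a calmodulin-dependent phosphodiesterase, Cacnb3 (0.88), a calcium channel beta subunit, and Smarcd1 (0.86). Chrm4 was followed by Inf2 (0.85), Rgs9 (0.85), a striatal regulator of G protein signalling, and Fam212b (0.83). Chrm1 was followed by Synpo (0.83), Slc8a2 (0.82) and Arf3 (0.80). Cnr1 was followed by Ndfip2 (0.92) and Itga9 (0.92).

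Oprd1 was followed by Gfod1 (0.87), Myh10 (0.83) and Myo3b (0.82). Gpr6 was followed by Baiap2 (0.87), Gnb5 (0.86), the beta subunit that partners Rgs9, and Camkv (0.86). Oprm1 and Gpr149 had weaker leading values: Pclo (0.73), Huwe1 (0.70) and Sorl1 (0.68) for Oprm1, and Rgsl1 (0.69), Efcab7 (0.65) and Mettl20 (0.64) for Gpr149. With group differences left in, the leading genes were Pde1b, Ppp1r1b and Drd2 for Adora2a, Rgs9, Rps6ka4 and Drd1 for Chrm4, Penk, Ppp1r1b and Drd2 for Gpr6, and Kcnab1 and Atp2b1 for Cnr1. They were Slc8a2, Synpo and Arf3 for Chrm1, Gfod1 and Itga9 for Oprd1, Pclo, Itsn2 and Vps13a for Oprm1, and Rgsl1 and Dpp10 for Gpr149. No r is given for these, since the groups form separate clusters.

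Among ligands and their enzymes, the opioid precursors had 1 of 4 members lower and none higher in Q140 against wild type, where 10.2% of all genes were lower and 9.64% higher. Penk, the enkephalin precursor, went from 1952 ± 183 CPM (SD, n = 7) to 965 ± 142 CPM (n = 8), a log2 change of -1.02 (SE 0.078, adjusted p = 3.34e-13), and was 1486 ± 124 CPM in Q140 Msh3-/- (0.62 above Q140, adjusted p = 1.77e-07). Of 6 genes that make or break down endocannabinoids, 2 rose and 1 fell, beside the same shares of all genes. Faah, the anandamide hydrolase, rose from 15.9 ± 1.32 to 22.2 ± 2.83 CPM (log2 change 0.48, adjusted p = 1.90e-06), Mgll, a lipase of 2-arachidonoylglycerol, rose by 0.15 (adjusted p = 0.0440), and Dagla, which makes 2-arachidonoylglycerol, fell by 0.25 (adjusted p = 0.00261). In Q140 Msh3-/- against Q140, Faah fell by 0.45 (adjusted p = 1.11e-05) and Dagla rose by 0.20 (adjusted p = 0.0166).

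Of 5 genes of adenosine supply and removal, Adk, adenosine kinase, rose by 0.12 (adjusted p = 0.0188) and 4 did not pass. None of the 4 cholinergic genes passed by edgeR: the choline transporter Slc5a7 had a log2 change of -0.17 (adjusted p = 0.0527) and Ache, acetylcholinesterase, 0.13 (adjusted p = 0.0740). Of 12 other receptors of the same families, 2 rose and none fell in Q140, with 9.64% of all genes called higher and 10.2% lower: Gpr21 by 0.53 (adjusted p = 0.00633) and Oprl1, the nociceptin receptor, by 0.24 (adjusted p = 0.00656). Median log2 changes of these lists ran from -0.10 (cholinergic) to 0.08 (adenosine), against 0.01 over all genes tested.

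Of 21 other orphan receptors, 7 fell and 5 rose in Q140, again beside 10.2% and 9.64% of all genes. The smallest p belonged to Gpr153 (-0.55, adjusted p = 1.21e-07), Gpr26 (-0.64, adjusted p = 5.77e-07) and Gpr85 (0.29, adjusted p = 2.00e-06). Gpr26 went from 179 ± 23.0 to 116 ± 21.6 CPM and was 164 ± 19.9 CPM in Q140 Msh3-/- (0.49 above Q140, adjusted p = 8.48e-05). Of 26 G protein subunits and chaperones, 6 fell and 3 rose, the latter near the share of all genes: Gng3, a gamma subunit, rose by 0.49 (adjusted p = 7.39e-08), Gnb5 fell by 0.33 (adjusted p = 6.61e-06) and Ric8b, the chaperone of stimulatory alpha subunits, fell by 0.27 (adjusted p = 2.44e-05).

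Of 12 receptor kinases, arrestins and receptor partners, 3 rose and 3 fell, where 9.64% and 10.2% of all genes did. Cnrip1, which binds the tail of the CB1 receptor, rose from 22.5 ± 1.32 to 28.6 ± 1.81 CPM (log2 change 0.34, adjusted p = 2.67e-08), opposite in direction to Cnr1. Gprasp2, a receptor sorting protein, rose by 0.41 (adjusted p = 3.19e-08), and Necab2, a partner of the Adora2a receptor, fell by 0.25 (adjusted p = 5.16e-06). In Q140 Msh3-/- against Q140, Cnrip1 fell by 0.33 (adjusted p = 2.58e-07), Gprasp2 fell by 0.39 (adjusted p = 2.70e-07) and Necab2 rose by 0.16 (adjusted p = 0.00369).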

How the data were processed

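RNA of the striatum was extracted with RNeasy and libraries were prepared with a stranded TruSeq protocol, per the labels' protocols. The deposited count table holds whole reads per gene with no scaling, and the deposited FPKM table rescales them, by gene length and library size. Tools named in the submitters' processing notes are STAR 2.7.5c, SAMtools 1.10 and HTSeq 0.12.3, with builds GRCm38 and mm10. Annotation release and strand setting are not given in the sources used here. Each library was mapped to group, sex and replicate through its label, and each was taken as a separate mouse, which the labels do not state.

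Counts were fitted in R 4.3.3 with edgeR 4.0.16 (filterByExpr with a minimum count of 10 and a minimum total of 15, TMM scaling, robust glmQLFit on group means plus sex, glmQLFTest, two-sided) over all 48 libraries, with Benjamini-Hochberg adjustment over 19975 genes and a threshold of 0.05 in each of 12 comparisons. Genes not tested held 0.0383% of counts. CPM use TMM-scaled totals, and 95% intervals are the estimate ± 1.96 SE, unadjusted. Alternatives used RLE or no scaling, DESeq2 1.42.0, and limma 3.58.1 on log2(FPKM + 0.1) or log2(FPKM + 1). Others used voom with a random block for shared stems of sample codes, other filters, plate covariates, a replicate block and each library left out. The fit was also run on simulated counts with known changes set in the Q140 group. These counts held no sex, stem or plate effect, and the outcome is not reported here.

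The receptors, lists and the rule for named genes were chosen with earlier results of these data known. From each list the members called in Q140 against wild type were named, 3 at most, ranked by p, and where there were none, 2 were given as values. Likeness was searched among genes averaging 0 or more in log2 CPM, leaving out clone names. A few genes that these rules select are not reported here. At these depths the spread between libraries, more than counting error, limits precision.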

Additional observations from a re-analysis of the deposited data

Results flagged for a closer look

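The change of the Q140 effect in the libraries labelled Msh3-/- was past the threshold in edgeR's quasi-likelihood test for Chrm4, with an interaction of 0.42 (adjusted p = 0.00285), and for Gpr6, with 0.38 (adjusted p = 0.00533). With the plate row as a covariate neither passed (adjusted p = 0.0564 and 0.131). For Chrm4 the Q140 log2 change was -0.55 in mice without a mutant Msh3 allele and -0.14 on the Msh3-/- background, and for Gpr6 -0.54 and -0.16.

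Gpr149 had 1 library far from the rest of its group in 2 groups. It stood at 7.24 CPM (349 reads) in wild type F3, where the other 6 wild type libraries lay at 11.4 CPM or above, and at 19.8 CPM (934 reads) in Msh3-/- M3. Of 48 combinations of receptor and group examined, these 2 were flagged, and chance flags about 1 in 20. Without both libraries, an alternative chosen after seeing the data, Q140 against wild type had 7 receptors called, Gpr149 among them.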

How the results depend on the processing

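No result reversed. Q140 against wild type had 7 receptors called under all alternatives and without each of the 15 libraries. Scaling by library totals alone moved the median log2 change of all genes in that comparison from 0.01 to 0.10 and the genes called higher from 1926 of 3969 to 5076 of 6180, and the 7 receptors and their directions were kept. Q140 Msh3+/- against Q140, with 1 receptor called, had 3 called with the filter of 1 CPM in 24 libraries, with DESeq2 and with voom, 2 with library totals, with limma on filtered log2 FPKM at either offset and with the replicate block, and 0 without a filter on counts or FPKM or with only the groups compared. It ranged from 0 to 5 on leaving out 1 library, 5 without Q140 M4 and 0 without Q140 F1, F2, M1, M2 or M3 or Q140 Msh3+/- F1 or M4. Without Q140 Msh3+/- F3, Gpr6 was called in place of Chrm4. The interaction for Msh3-/-, with 2 called, had 4 with limma on filtered log2 FPKM at either offset, 3 with the replicate block and 0 with the plate row, and ranged from 2 to 6 on leaving out 1 library, 6 without Q140 M4. Q140 Msh3-/- against Msh3-/- went from 0 to 1 (Adora2a) with DESeq2 and with only the groups compared. The causes were not tested. Q140 Msh3-/- against Q140 had 6 or 7 called, Gpr149 lower being added in 8 of 14 other settings and Oprd1 lost with only the groups compared.

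Replicate numbers showed no pairing in the median: deviations of 115 pairs with the same sex and number had a median correlation of -0.01. For 364 pairs with other numbers the median was 2.6e-05. Of the 48 libraries, 15 were most like one of their own number, and the share expected by chance was not computed. Oprm1 had the fewest reads, 196 to 465 per wild type library.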
